A study of Mus musculus with 4 samples.

Results

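The genes described here carry out or feed the synthesis of steroid hormones: Star, Cyp11a1, Cyp17a1, Hsd3b1, Cyp19a1, Hsd17b1, Srd5a1, Cyb5a, Por and Fdx1. They were taken by gene symbol, and all 10 were found among the 32285 genes of the files. Single-cell RNA libraries had been made from mouse ovaries of 4 groups, with 1 library per group. Mice of postnatal day 25 received PBS/saline (control), doxorubicin (an anthracycline that damages DNA) at 3 mg/kg, doxorubicin at that dose with AMH (anti-Müllerian hormone, given as recombinant human protein) at 0.75 mg/kg, or only AMH at 0.75 mg/kg. There were 2 weekly doses of doxorubicin, and tissue was collected 4 hours after the second. Each library was a pool of 5 animals (1 ovary per animal), which leaves variation among animals unmeasured and allows no test between treatments. The strain, the route and the schedule of AMH are not given in the sources used here. Where 4 values stand in a row, the first is control, followed by doxorubicin, doxorubicin+AMH and AMH.

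Steroid hormones are made from cholesterol by a chain of enzymes split between neighbouring cells of the follicle. Star delivers cholesterol to the inner mitochondrial membrane, where Cyp11a1 cleaves its side chain with electrons from the ferredoxin Fdx1. Hsd3b1 then makes the active keto-steroids from their precursors, and Cyp17a1, helped by the electron donor Por and the cofactor Cyb5a, turns progestins into androgens. Theca cells around the follicle make androgens under luteinizing hormone, and granulosa cells inside it convert them to oestrogens with the aromatase Cyp19a1 and the reductase Hsd17b1. Srd5a1 is a steroid reductase that diverts testosterone and progesterone to reduced products.

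In theca-like cells the transcripts of the androgen-making steps were lower in both libraries that had received AMH. Cyp17a1 was 14.2-fold lower in AMH than in control and 5.96-fold lower in doxorubicin+AMH than in doxorubicin. Cyp11a1, Hsd3b1, Srd5a1 and Fdx1 were also lower, while Star, Por and Cyb5a stayed within 1.5-fold under the main settings. In granulosa-like cells none of the 6 members with a mean of at least 20 CPM differed by 2-fold or more. Over the whole class, the oestrogen-making genes Hsd17b1 and Cyp19a1 were highest in doxorubicin+AMH. Cyp19a1 had a mean below 20 CPM, and its direction with AMH differed between granulosa-like clusters. With AMH, most theca-like cells lay in a different cluster from those of control and doxorubicin, and fewer members were lower by 2-fold or more inside single clusters. In AMH / control these were Cyp11a1, Cyp17a1 and Srd5a1 in cluster 9, which held most theca-like cells of the libraries without AMH, and Cyp17a1 alone in cluster 14, which the 4 libraries filled evenly.

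The libraries held 7141 to 9478 cells and 138647495 to 178279122 UMIs (molecular tags that count each captured transcript once), and pairs of libraries shared 11 to 24 cell barcodes. After filtering, 28440 cells were clustered without the 10 members and without the other genes of the steroid pathway. Of 33 clusters, 3 were named theca-like (847, 587, 747 and 913 cells) and 10 granulosa-like (2161, 2212, 2327 and 3077 cells). The theca-like clusters met the rule for 6, 6 and 8 of the 8 theca markers, and the granulosa-like clusters for 4 to 7 of the 7 granulosa markers. The name "-like" marks a class rebuilt from marker genes, and no cluster met the rule for luteal cells or oocytes. Levels are CPM, the UMIs of a gene per 1000000 UMIs summed over the cells of a class in a library, with exact Poisson 95% intervals. Ratios carry exact 95% intervals of a ratio of 2 counts. Both kinds of interval describe counting error alone.

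By GENCODE annotation on GRCm38 (the mm10 build), Star lies on chromosome 8, 25806555 to 25815982, Cyp11a1 on chromosome 9, 58006411 to 58027023, Cyp17a1 on chromosome 19, 46667165 to 46673172 and Hsd3b1 on chromosome 3, 98852194 to 98859794. Cyp19a1 lies on chromosome 9, 54165937 to 54268110, Hsd17b1 on chromosome 11, 101078411 to 101080527, Srd5a1 on chromosome 13, 69573449 to 69611442, Por on chromosome 5, 135670033 to 135735326 and Fdx1 on chromosome 9, 51943306 to 51963556. Exons of Cyp11a1 overlap Gm17322 and exons of Srd5a1 overlap Gm17108 on the same strand, so reads of these pairs may not be separable. In the last 500 bases of its transcripts, where 3′ libraries are counted, Cyp11a1 shared 3.71% of its 50-base words with other genes. The other members shared none, Hsd3b1 with its close relatives included.

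3 of the members that were lower in theca-like cells of the AMH libraries have a RefSeq start near their annotated gene start, and the 250 bases before it are shown to let their promoters be compared (GRCm38.p6, minus strand in each case, 5′ to 3′). The windows are chr3:98859795-98860044 for Hsd3b1, chr9:51963603-51963852 for Fdx1 and chr13:69611464-69611713 for Srd5a1. Capitals mark matches, on either strand, to GATAA, recognised by transcription factors of the family named after it, or to GGGCGG, recognised by Sp1. Both motifs belong to factors known from promoters of this pathway.
Hsd3b1: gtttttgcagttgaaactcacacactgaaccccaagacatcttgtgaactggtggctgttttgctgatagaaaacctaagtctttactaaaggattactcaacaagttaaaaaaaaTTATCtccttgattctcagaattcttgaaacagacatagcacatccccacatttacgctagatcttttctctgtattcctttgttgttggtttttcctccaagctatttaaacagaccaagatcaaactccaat
Fdx1: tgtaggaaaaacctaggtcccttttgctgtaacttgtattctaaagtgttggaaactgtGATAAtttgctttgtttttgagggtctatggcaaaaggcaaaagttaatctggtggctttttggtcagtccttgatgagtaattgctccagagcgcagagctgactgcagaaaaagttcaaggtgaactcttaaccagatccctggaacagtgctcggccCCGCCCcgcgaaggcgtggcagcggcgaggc
Srd5a1: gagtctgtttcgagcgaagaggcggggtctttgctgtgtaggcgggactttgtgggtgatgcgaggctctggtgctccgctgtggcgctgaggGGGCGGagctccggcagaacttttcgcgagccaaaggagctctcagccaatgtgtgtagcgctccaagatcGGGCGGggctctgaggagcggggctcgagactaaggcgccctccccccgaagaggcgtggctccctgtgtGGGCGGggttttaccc
GATAA had 1 match each in Hsd3b1 and Fdx1, and GGGCGG 3 in Srd5a1 and 1 in Fdx1. AAGGTCA, the motif of the steroidogenic factor Nr5a1, was searched too and had no match in these 3 windows. Of all 32851 RefSeq windows of this length, 22.6% held GATAA, 32.7% GGGCGG and 4.08% AAGGTCA. A match is a run of letters and not a measured binding site. The promoters of Cyp11a1 and Por in this set start far from the annotated gene start and are not shown.

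Theca-like cells held most of the early-pathway transcripts. Of all Cyp17a1 UMIs among kept cells, 97.6%, 97.3%, 88.1% and 83.7% lay in theca-like cells. For Cyp11a1 the share was 95.1%, 93.8%, 79.9% and 76.6%. Hsd3b1, which both follicle layers express, had 74.1%, 72.6%, 38.5% and 39.1% of its UMIs in theca-like cells and 23.8%, 25.1%, 57.0% and 55.9% in granulosa-like cells. The larger part of Hsd3b1 message therefore lay in theca-like cells in control and doxorubicin, and in granulosa-like cells in both AMH libraries. Such shares also depend on the number and depth of the cells captured of each class. As CPM, the lowest theca-like level of Hsd3b1 (1593) lay above the highest granulosa-like level (622). The last steps lay on the other side of the follicle: granulosa-like cells held 96.9%, 97.7%, 97.6% and 97.7% of Cyp19a1 UMIs and 97.2%, 97.4%, 96.4% and 95.4% of Hsd17b1 UMIs.

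**Figure D1:**
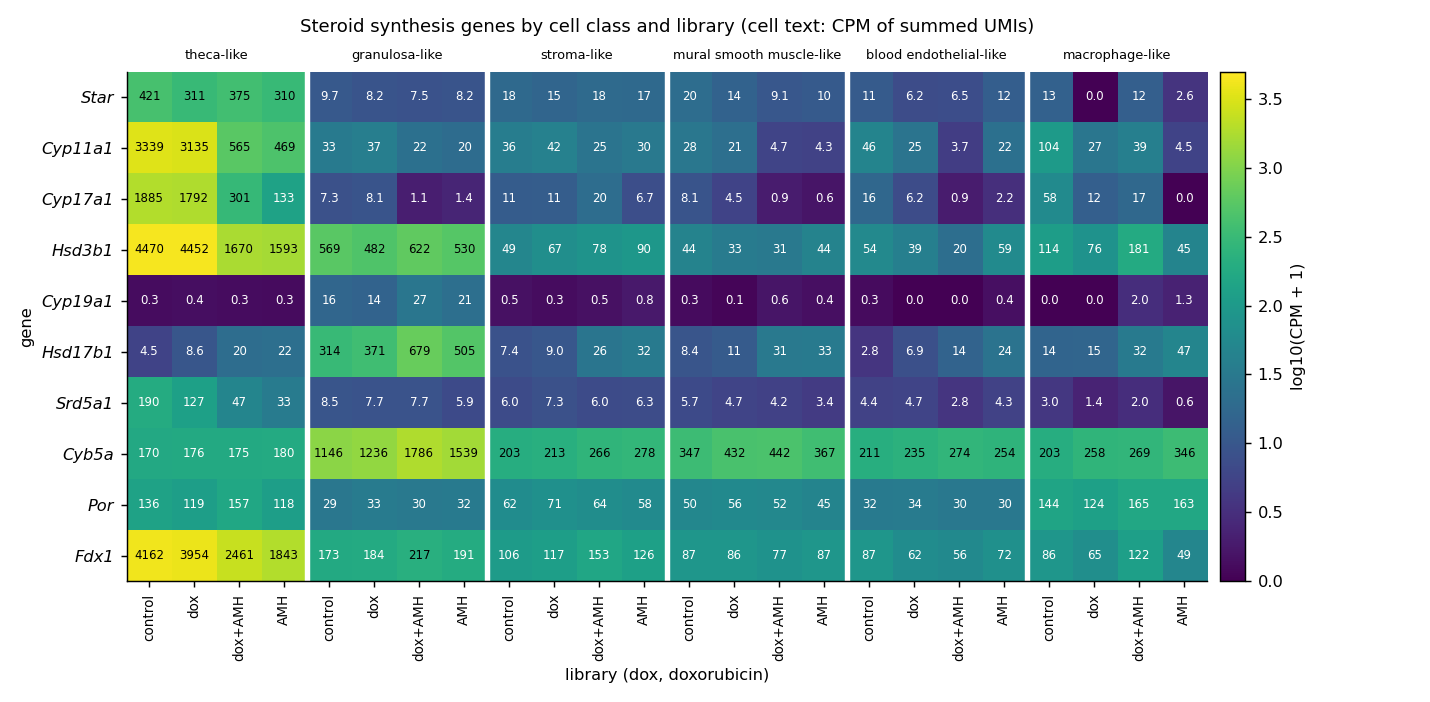
Level of each of the 10 genes (rows) in 6 cell classes and 4 libraries (columns); colour is log10(CPM + 1) and the text in each cell is the CPM of summed UMIs. Of these classes, theca-like cells have the highest Star, Cyp11a1, Cyp17a1, Srd5a1 and Fdx1, and granulosa-like cells the highest Cyp19a1, Hsd17b1 and Cyb5a.

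The transcript for cholesterol delivery stayed within 1.5-fold with AMH in the theca-like class as a whole, under the main settings. Star had 421 (413 to 429), 311 (304 to 319), 375 (366 to 385) and 310.3 (302 to 319) CPM in theca-like cells. The control library was the highest, and doxorubicin and AMH alone were the lowest with overlapping intervals. The AMH library was 1.36-fold lower (1.31 to 1.40) than control, and doxorubicin+AMH was 1.20-fold higher (1.16 to 1.25) than doxorubicin. In cluster 14, the theca-like cluster that the libraries filled evenly, Star was 1.47-fold lower in AMH than in control and 1.89-fold higher in doxorubicin+AMH than in doxorubicin.

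Transcripts for side-chain cleavage were lower with AMH. Cyp11a1, which starts the pathway, had 3339 (3317 to 3361), 3135 (3109.7 to 3159.5), 565 (554 to 577) and 469 (459 to 479) CPM in theca-like cells, and its UMIs numbered 86307, 60967, 9012 and 8432. Both AMH libraries lay far below the others. AMH was 7.12-fold lower (6.96 to 7.28) than control, and doxorubicin+AMH was 5.54-fold lower (5.42 to 5.67) than doxorubicin. Fdx1, its electron donor, had 4162, 3954, 2461 and 1843 CPM in the same cells. AMH was 2.26-fold lower (2.23 to 2.29) than control, and doxorubicin+AMH was 1.61-fold lower (1.59 to 1.63) than doxorubicin, so Fdx1 kept more of its level than Cyp11a1 in each contrast.

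Hsd3b1, which forms progesterone from pregnenolone, had 4470.2 (4445 to 4496), 4452 (4423 to 4482), 1669.6 (1649.6 to 1689.8) and 1593 (1575 to 1612) CPM in theca-like cells. The values without AMH had overlapping intervals. AMH was 2.81-fold lower (2.77 to 2.84) than control, and doxorubicin+AMH was 2.67-fold lower (2.63 to 2.70) than doxorubicin.

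The transcript of the androgen-forming enzyme showed the widest span of the members that passed 20 CPM. Cyp17a1 had 1885 (1868 to 1902), 1792 (1774 to 1811), 301 (292 to 309) and 133 (128 to 138) CPM in theca-like cells, from 48723, 34864, 4795 and 2390 UMIs. AMH was 14.2-fold lower (13.6 to 14.8) than control, and doxorubicin+AMH was 5.96-fold lower (5.78 to 6.14) than doxorubicin. The library with both agents lay between AMH alone and the libraries without AMH, and it was 2.26-fold higher (2.15 to 2.38) than AMH. Its helpers did not follow it. Por had 136, 119, 157 and 118 CPM and Cyb5a 169.6, 176, 175 and 179.6 CPM in theca-like cells, and the log2 ratios of AMH / control were -0.19 and 0.08.

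Srd5a1 had 190.2 (185 to 196), 127 (122 to 132), 47.4 (44.1 to 50.9) and 33.5 (30.9 to 36.3) CPM in theca-like cells. AMH was 5.68-fold lower (5.22 to 6.19) than control, and doxorubicin+AMH was 2.67-fold lower (2.46 to 2.90) than doxorubicin. The doxorubicin library also lay below control, at 1.502-fold lower (1.43 to 1.58). Cyp19a1 was close to absent from theca-like cells, with 8, 7, 5 and 5 UMIs. Hsd17b1 had 4.49, 8.64, 19.7 and 21.6 CPM there, and the same order of libraries was seen in stroma-like cells (7.42, 9.03, 26.3 and 31.8 CPM) and mural smooth muscle-like cells (8.37, 10.6, 30.6 and 32.9 CPM). The theca-like level lay below the stroma-like level in each library, and the part of free RNA in it was not tested.

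**Figure D2:**
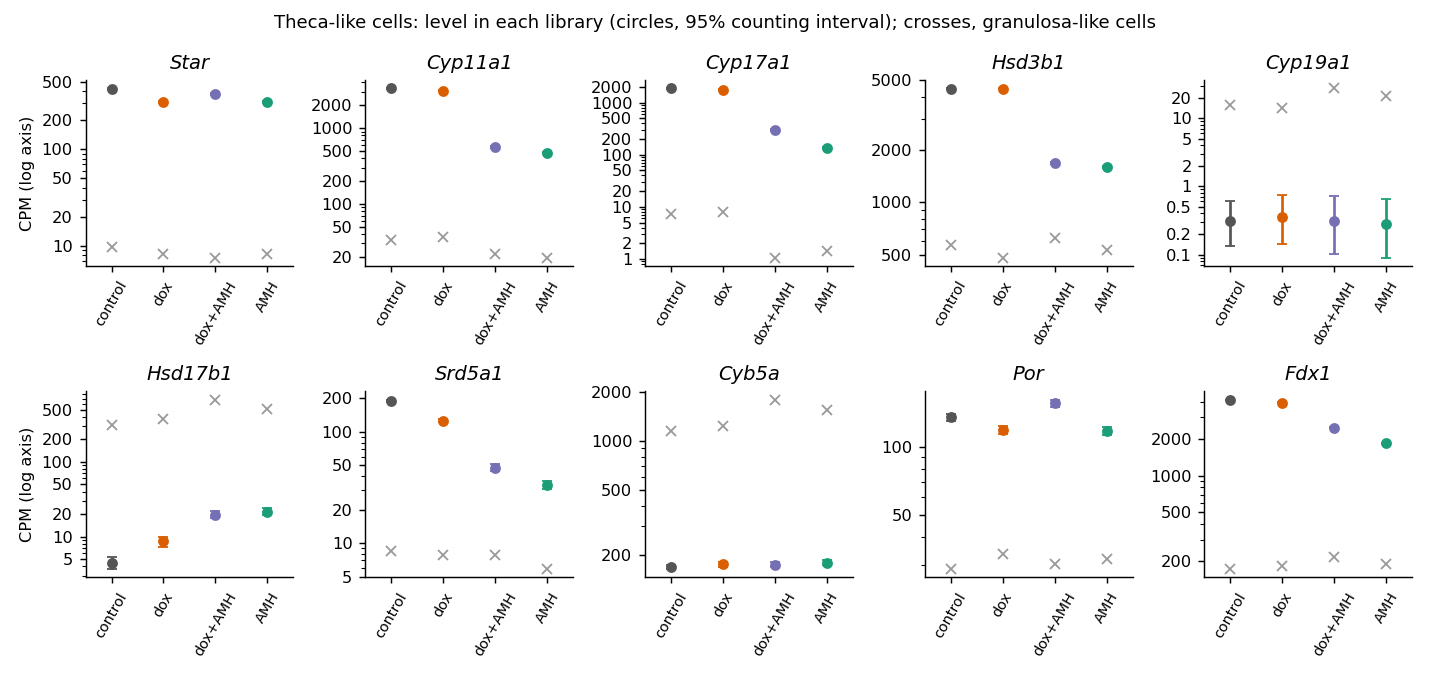
CPM of each of the 10 genes in theca-like cells of each library (dox, doxorubicin; circles, with exact Poisson 95% intervals, many smaller than the circle) on log axes; crosses give the granulosa-like cells of the same libraries. Cyp11a1, Cyp17a1, Hsd3b1, Srd5a1 and Fdx1 are lower in both AMH libraries in theca-like cells, and Cyb5a is level.

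Of the 10 members, 8 passed a mean of 20 CPM in theca-like cells, and Cyp19a1 and Hsd17b1 did not. In AMH / control, 5 of the 8 were lower by 2-fold or more on the log2(CPM + 5) scale (Cyp11a1, Cyp17a1, Hsd3b1, Srd5a1 and Fdx1) and 0 higher. Among all 6258 genes that passed, 3.00% were lower and 2.19% higher by that much. In doxorubicin+AMH / doxorubicin, 4 were lower (Cyp11a1, Cyp17a1, Hsd3b1 and Srd5a1) and 0 higher, against 2.92% and 2.16% of all genes. The median log2 ratio of the 8 was -1.33 and -1.01 in these contrasts, and that of all genes -0.07 and -0.04. With 1 library per group these counts describe the libraries and are not calls by a test. The members had been chosen with earlier results of these data known.

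Several other measures of the theca-like cells moved with AMH. The median UMIs per cell were 20408, 24381, 14204 and 12858, and the median share of mitochondrial UMIs was 8.02%, 7.47%, 5.47% and 5.61%. A list of 19 tissue dissociation stress genes summed to 10727, 11658, 14667 and 14953 CPM. The 5 stroma markers summed to 113, 121, 409 and 450.1 CPM, against 4464, 4423, 3532 and 4495 CPM in stroma-like cells. The mural smooth muscle markers summed to 55.9, 38.5, 88.9 and 84.3 CPM in theca-like cells, the granulosa markers to 507, 497, 277 and 299 CPM and the luteal markers to 841, 784, 468 and 395 CPM. The erythroid markers, at 95.9, 29.8, 187 and 9.18 CPM, did not follow AMH. Of the 8 theca markers, Insl3, Fdxr, Mgarp and Prlr were lower by 2-fold or more in both AMH contrasts. Aldh1a1 had log2 ratios of -0.82 and -0.91 and Lhcgr of -0.27 and -0.63, while Ptch1 (0.52 and 0.14) and Hhip (0.21 and 0.33) were slightly higher. In cluster 14, described next, the median UMIs per cell were 20770.0, 23216, 24293 and 23210.0, the mitochondrial share 5.43%, 5.402%, 5.62% and 5.49% and the stress list 9956, 9842, 9514 and 9793 CPM. The stroma markers there summed to 397, 308, 354 and 461 CPM, the mural smooth muscle markers to 101, 82.1, 101 and 160.1 CPM and the erythroid markers to 11.6, 21.2, 626 and 9.20 CPM, so that mural markers were highest in AMH and erythroid markers in doxorubicin+AMH. In cluster 9 the median UMIs per cell were 20722.5, 25412.5, 18140.5 and 17718 and the mitochondrial share 8.79%, 8.48%, 6.95% and 7.59%. The stress list there summed to 10853, 12050, 11325 and 10636 CPM and the stroma markers to 54.6, 65.5, 99.99 and 98.2 CPM. For both clusters and for the class, the part of these measures in the result was not tested.

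The theca-like class held 3 clusters that the libraries filled unequally. Cluster 9, led by Mgarp, Serpina5 and Prlr, held 654, 410, 46 and 52 cells. Cluster 8, led by Lhcgr, Prss35 and Grm7, held 23, 20, 545 and 706 cells. Cluster 14, led by Lhcgr, Enpep, Sct and Hhip, held 170, 157, 156 and 155 cells and was the cluster that the 4 libraries shared evenly. A comparison of the whole class between libraries with and without AMH is therefore also a comparison of cluster 8 with cluster 9.

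Cyp17a1 was lower with AMH within each of the 3 clusters, by less than in the whole class in clusters 14 and 9 but not in cluster 8. In cluster 14 Cyp17a1 had 917 (889 to 947), 1198 (1163 to 1233), 760.3 (735 to 786) and 361 (343 to 379) CPM, so that AMH was 2.54-fold lower (2.40 to 2.70) than control and doxorubicin+AMH 1.58-fold lower (1.51 to 1.65) than doxorubicin. In cluster 9 it had 2084, 1959, 805 and 355 CPM, 5.86-fold lower (5.34 to 6.45) in AMH than in control and 2.43-fold lower (2.26 to 2.62) in doxorubicin+AMH than in doxorubicin. In cluster 8 it had 599, 374, 62.0 and 33.2 CPM, the first pair from 23 and 20 cells, 18.0-fold lower (14.2 to 22.7) in AMH than in control and 6.03-fold lower (4.69 to 7.65) in doxorubicin+AMH than in doxorubicin. The order of the AMH libraries, doxorubicin+AMH above AMH, was seen in each of the 3 clusters.

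Cyp11a1 in cluster 14 had 975, 1365, 1049.6 and 791 CPM, 1.23-fold lower in AMH than in control and 1.30-fold lower in doxorubicin+AMH than in doxorubicin. In cluster 9 it had 3818, 3607, 1580.1 and 1482 CPM, 2.58-fold lower and 2.28-fold lower in the same contrasts. In cluster 8 it had 1005, 575, 272 and 258 CPM, the first pair from 23 and 20 cells. Hsd3b1 differed little inside clusters, with 1910.4, 2433, 1899 and 1798 CPM in cluster 14 and 4991, 4998, 4392 and 4012 CPM in cluster 9. Its level separated the clusters more than the treatments, since cluster 8 had 1624, 1082, 1337 and 1281 CPM. Srd5a1 had 217, 146, 99.99 and 61.5 CPM in cluster 9 and 60.6, 53.8, 50.9 and 40.3 CPM in cluster 14. Fdx1 in cluster 14 was lowest in AMH and highest in doxorubicin+AMH, with 2589.6, 2498, 2979 and 1918 CPM. Its direction in doxorubicin+AMH / doxorubicin was thus opposite to that of the whole class. The same held in cluster 8, where Fdx1 had 1730, 1254, 2081 and 1706 CPM. In cluster 9 it had 4486, 4350, 4323 and 2959 CPM, nearly level in that contrast.

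The members lower by 2-fold or more were also counted within single clusters, a comparison added after the values were seen, and 8 members passed 20 CPM in either cluster. In cluster 9 they numbered 3 in AMH / control (Cyp11a1, Cyp17a1 and Srd5a1) and 2 in doxorubicin+AMH / doxorubicin (Cyp11a1 and Cyp17a1), where 1.5% and 1.68% of all 6132 genes were lower by that much. In cluster 14 the members lower by 2-fold or more numbered 1 in AMH / control (Cyp17a1) and 0 in doxorubicin+AMH / doxorubicin, where 0.196% and 0.114% of all 6128 genes were lower by that much. The share of all genes was thus also smaller than in the whole class, where 5 and 4 members were lower. In AMH / control the median log2 ratio of the 8 was -0.63 in cluster 9 and -0.48 in cluster 14, and that of all genes -0.08 and -0.03. In doxorubicin+AMH / doxorubicin it was -0.10 and 0.05, and that of all genes -0.09 and -0.02. Cluster 8, with 23 and 20 cells in the libraries without AMH, was left out of these counts. Less RNA per cell and a different set of cells captured cannot be told apart at the level of the class.

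**Figure D3:**
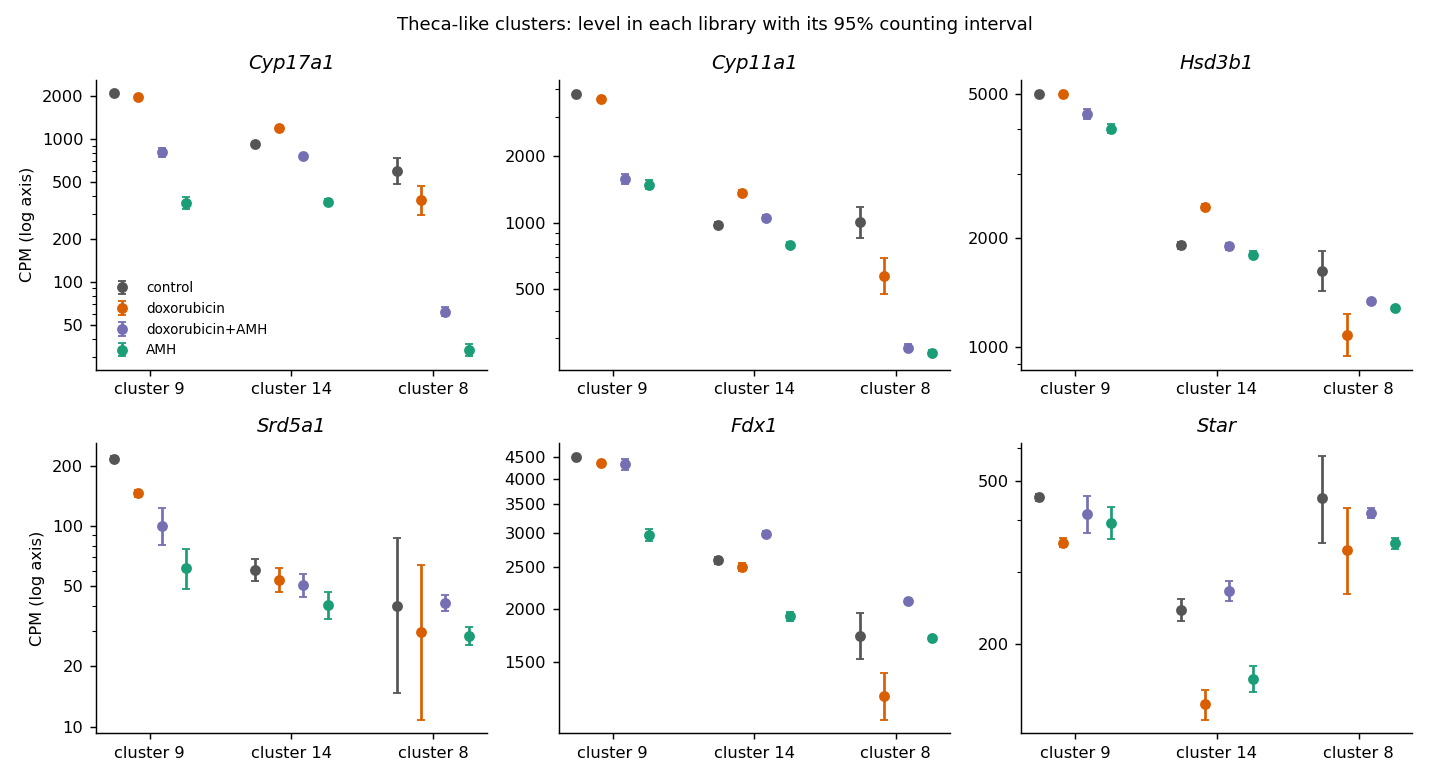
CPM of 6 genes in the 3 theca-like clusters of each library, with exact Poisson 95% intervals, on log axes. Cyp17a1 is lowest in AMH in clusters 9, 14 and 8, whereas Hsd3b1 differs more between clusters than between libraries.

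The share of cells with a UMI was measured after every cell had been thinned to 2000 UMIs, which left out 9, 30, 5 and 15 theca-like cells. Cyp17a1 was seen in 82.0% (79.2 to 84.5), 66.6% (62.5 to 70.5), 15.9% (13.3 to 18.7) and 7.57% (5.93 to 9.50) of theca-like cells. In granulosa-like cells, which lack this enzyme, the share was 1.29%, 2.37%, 0.225% and 0.306% at median depths of 22265, 21108, 20887 and 16042 UMIs, so the theca-like share lay above that background in each library. Without thinning the theca-like shares were 91.9%, 81.8%, 30.5% and 18.5%. Among thinned theca-like cells with a UMI, the mean number of Cyp17a1 UMIs was 4.71, 5.30, 3.16 and 2.28. Both the share of cells and the message per positive cell were thus lower in the AMH libraries.

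Cyp11a1 was seen in 90.2%, 85.8%, 31.0% and 24.7% of thinned theca-like cells, Hsd3b1 in 94.2%, 91.7%, 62.0% and 56.9% and Fdx1 in 95.5%, 93.4%, 81.5% and 75.8%. Without thinning the shares were 95.7%, 94.4%, 54.9% and 51.4% for Cyp11a1, 97.4%, 97.1%, 80.5% and 78.4% for Hsd3b1 and 99.1%, 98.8%, 95.6% and 95.5% for Fdx1. Star was seen in 45.0% (41.6 to 48.4), 35.9% (31.9 to 40.0), 34.9% (31.5 to 38.5) and 24.7% (21.9 to 27.7) of thinned cells and in 83.9%, 73.9%, 67.9% and 56.7% without thinning. No order is read from the Star shares, which do not follow its CPM. A cell equipped for the whole route from cholesterol to androgen carries Star, Cyp11a1, Cyp17a1 and Hsd3b1. UMIs of all 4 genes were found together in 39.1%, 26.8%, 6.06% and 2.34% of thinned theca-like cells, and in 0 of 2071 to 2938 granulosa-like cells per library, which, at 3 counts, allows up to 0.145% of cells with UMIs of all 4 genes at this depth and sets no limit on expression too low to be seen in 2000 UMIs. In cluster 14 alone this share was 19.2%, 12.98%, 16.7% and 5.26%, with wide intervals that overlap between control (13.5 to 26.0) and doxorubicin+AMH (11.2 to 23.5).

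A fixed list of 41 further genes of the pathway put the members in context. Of these, 40 are in the files and 19 passed 20 CPM in theca-like cells. In each AMH contrast 7 of the 19 were lower by 2-fold or more and 0 higher, beside 3.00% and 2.92% of all genes lower and 2.19% and 2.16% higher. The medians of the 19 were -0.51 and -0.63 on the log2 scale, and those of all genes -0.07 and -0.04. The genes lower in both contrasts were Fdxr, Cyb5r3, Stard4, Hsd17b7, Insl3 and Nr5a1. Of these, Stard4 and Insl3 lay below 20 CPM in both AMH libraries and passed the mean of 20 CPM through the libraries without AMH. Hsd3b6, which was higher with AMH, lay below that mean and was not counted. Fdxr and Insl3 also serve as theca markers, so they are not independent of how the cells were named.

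Nr5a1, the steroidogenic factor that drives many genes of this pathway, had 178, 178, 55.7 and 57.7 CPM in theca-like cells. It was 3.09-fold lower (2.89 to 3.31) in AMH than in control and 3.19-fold lower (2.96 to 3.44) in doxorubicin+AMH than in doxorubicin. Fdxr, the reductase that loads Fdx1 with electrons, had 379, 366, 162 and 149 CPM. Insl3, a peptide hormone of theca cells, had 78.7, 58.6, 12.5 and 16.6 CPM, and Stard4, a cholesterol carrier, 38.8, 37.8, 13.5 and 10.8 CPM. Hsd17b7 had 59.7, 62.5, 24.8 and 20.7 CPM and Cyb5r3, which reduces cytochrome b5, 252, 235, 112 and 114 CPM. The theca marker Lhcgr, the receptor for luteinizing hormone, had 438, 494, 317 and 362 CPM, 1.21-fold lower and 1.56-fold lower in the AMH contrasts.

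The drug was compared in the absence of AMH (doxorubicin / control) and in its presence (doxorubicin+AMH / AMH). In theca-like cells 0 of the 8 members that passed differed by 2-fold in doxorubicin / control in either direction, where 0.0479% of all genes were higher and 0.0639% lower. In doxorubicin+AMH / AMH, 1 was higher (Cyp17a1) and 0 lower, against 0.0320% and 0.0479% of all genes. The medians of the 8 were -0.08 and 0.33, and those of all genes -0.01 and 0.01.

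Without AMH, Cyp11a1, Cyp17a1, Hsd3b1 and Fdx1 had log2 ratios of -0.09, -0.07, -0.01 and -0.07 for doxorubicin / control. With AMH the same genes had 0.27, 1.15, 0.07 and 0.42 for doxorubicin+AMH / AMH. Star and Srd5a1 had opposite signs in this pair, at -0.43 and 0.27 for Star and -0.57 and 0.45 for Srd5a1. In cluster 14, Star had 242 (227 to 257), 142 (130.5 to 155), 269 (254 to 285) and 164 (152 to 177) CPM, lower in doxorubicin than in control and higher in doxorubicin+AMH than in AMH. Cyp11a1 and Cyp17a1 there were 1.40-fold higher and 1.31-fold higher in doxorubicin than in control, opposite in sign to the whole class.

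**Figure D4:**
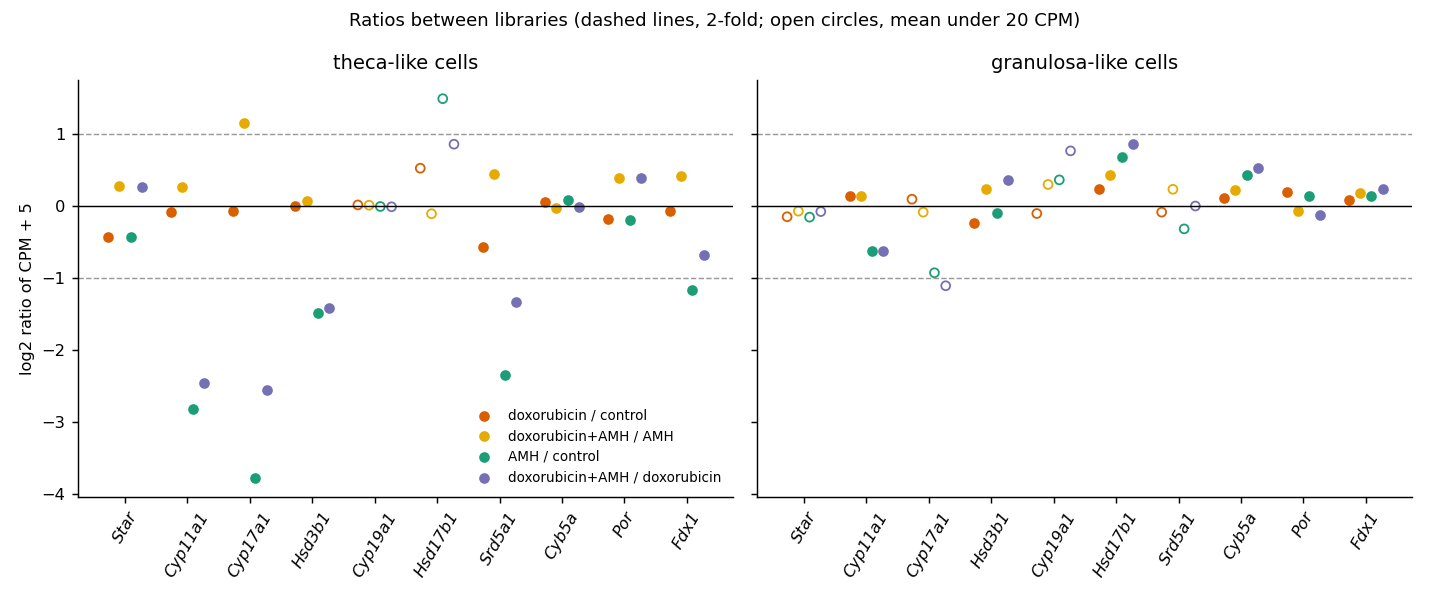
Log2 ratios of CPM + 5 for the 10 genes (x axis) in theca-like and granulosa-like cells, with 1 colour per contrast; filled circles passed a mean of 20 CPM, open circles did not, and dashed lines mark 2-fold. Points past 2-fold among filled circles are in theca-like cells only, for AMH / control, doxorubicin+AMH / doxorubicin and, with Cyp17a1, doxorubicin+AMH / AMH.

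In granulosa-like cells the oestrogen-making genes were higher with AMH, by less than 2-fold. Hsd17b1, which reduces oestrone to oestradiol, had 314 (309.6 to 318), 371 (366 to 375), 679 (673 to 686) and 505 (500.4 to 510.4) CPM. AMH was 1.61-fold higher (1.58 to 1.64) than control, and doxorubicin+AMH was 1.83-fold higher (1.80 to 1.86) than doxorubicin. Cyp19a1, the aromatase, had 15.6 (14.6 to 16.6), 14.1 (13.2 to 15.1), 27.5 (26.2 to 28.8) and 21.4 (20.4 to 22.5) CPM from 1016, 877, 1738 and 1656 UMIs and a mean below 20 CPM. AMH was 1.38-fold higher (1.27 to 1.49) than control, and doxorubicin+AMH was 1.95-fold higher (1.79 to 2.11) than doxorubicin. For both genes the library with both agents was the highest. The granulosa-like class held 3 clusters of which over 90% of cells came from 1 library: clusters 26 and 32 from doxorubicin (183 and 79 cells) and cluster 30 from AMH (125 cells). Without them, a comparison added after the values were seen, the log2 ratio of Hsd17b1 was 0.68 in AMH / control and 0.85 in doxorubicin+AMH / doxorubicin, against 0.68 and 0.86 with them.

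Cyb5a, an electron carrier with many partners beside Cyp17a1, followed a similar order, with 1146, 1236, 1786 and 1539 CPM. Hsd3b1 had 569, 482, 622 and 529.8 CPM, and Fdx1 173, 184, 217 and 191 CPM. Por had 28.7, 33.4, 30.1 and 32.0 CPM and differed least. Cyp17a1 was at 7.25, 8.07, 1.06 and 1.44 CPM, and at 8.07, 4.55, 0.895 and 0.641 CPM in mural smooth muscle-like cells, which lack it. Cyp11a1 was at 33.0, 36.9, 22.1 and 19.6 CPM, and at 28.3, 21.2, 4.74 and 4.33 CPM in mural smooth muscle-like cells. In stroma-like cells Cyp11a1 was at 36.3, 41.9, 25.3 and 29.9 CPM and Cyp17a1 at 11.04, 11.2, 19.8 and 6.74 CPM, above the granulosa-like level in each library. Over the libraries, stroma-like cluster 15, which also met the rule for theca-like cells, had 105 CPM of Cyp11a1 and 50.4 CPM of Cyp17a1. The other stroma-like clusters had 16.8 to 25.9 CPM and 4.12 to 5.86 CPM, beside 27.4 and 4.30 CPM in granulosa-like cells. The part of free RNA in the low levels of these classes was not tested.

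Of the 10 members, 6 passed 20 CPM in granulosa-like cells (Cyp11a1, Hsd3b1, Hsd17b1, Cyb5a, Por and Fdx1), and 0 were past 2-fold in any of the 4 contrasts. Among all 6637 genes that passed, 0.105% were higher and 0.301% lower by 2-fold in AMH / control, and 0.0904% and 0.467% in doxorubicin+AMH / doxorubicin. The shares were 0.0151% and 0.0301% in doxorubicin / control, and 0.0151% and 0.0151% in doxorubicin+AMH / AMH. The medians of the 6 members were 0.13, 0.30, 0.12 and 0.20 in these contrasts, and those of all genes -0.06, -0.04, -0.02 and 0.00. Of the wider list, 19 of 40 passed and 1 was past 2-fold, in AMH / control: Hsd11b2, which inactivates corticosterone, with 47.7, 39.7, 21.1 and 17.2 CPM (named after its values were seen).

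The oestrogen-making genes had their highest levels in cluster 13, a granulosa-like cluster led by Inhba, Inhbb, Inha and Nppc that held 111, 118, 268 and 274 cells. There Cyp19a1 had 102 (90.1 to 115), 96.1 (85.9 to 107), 118 (109.5 to 127) and 78.2 (71.7 to 85.2) CPM, so that doxorubicin+AMH was highest and AMH lowest. Hsd17b1 had 1272, 1292, 1522 and 1248 CPM and Hsd3b1 2626, 2403, 2008 and 1922 CPM in this cluster. In cluster 4, led by Kcnq5 and Bmpr1b, Cyp19a1 had 0.503, 0.790, 0.391 and 1.86 CPM. In cluster 10, led by Cntn4, Slc18a2 and Cdh12, it had 2.298, 1.93, 0.927 and 0.998 CPM.

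For Cyp19a1 the direction with AMH differed between clusters. In cluster 6, led by Inhba, Inhbb, Fst and the division gene Top2a, Cyp19a1 had 27.2 (24.9 to 29.7), 19.4 (17.4 to 21.7), 33.7 (31.5 to 36.1) and 38.6 (36.1 to 41.2) CPM and was 1.42-fold higher in AMH than in control. In cluster 2, led by Nr5a2 and Fst, it had 13.5 (11.7 to 15.5), 10.49 (8.82 to 12.4), 7.55 (6.25 to 9.05) and 8.77 (7.40 to 10.3) CPM and was 1.54-fold lower. In cluster 13 it was 1.31-fold lower in AMH than in control and 1.23-fold higher in doxorubicin+AMH than in doxorubicin. Over the 4 libraries cluster 6 held more Cyp19a1 UMIs than cluster 13. The class value thus also reflects how many cells of each cluster a library held. Hsd17b1 kept its direction in more clusters, with 433, 479.6, 847 and 739.8 CPM in cluster 6, 436, 507, 558 and 522 CPM in cluster 2, 54.4, 59.5, 86.7 and 92.1 CPM in cluster 4 and 124, 189, 385 and 278 CPM in cluster 10. In AMH / control cluster 13 was the exception among these 5, where AMH had 1248 CPM and control 1272 CPM.

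Hsd3b1 in granulosa-like cells behaved differently by cluster. In cluster 10, whose leading genes include Amh itself, Hsd3b1 had 363 (352 to 374), 303 (293 to 313), 70.9 (63.2 to 79.3) and 76.7 (69.9 to 84.0) CPM, and AMH was 4.73-fold lower (4.30 to 5.22) than control. In the same cells Hsd17b1 was 2.23-fold higher (2.08 to 2.40) in AMH. In cluster 6 Hsd3b1 had 644, 437, 686 and 718 CPM, lowest in doxorubicin, and in cluster 2 789, 556, 495 and 480.3 CPM, highest in control. The level of Hsd3b1 in mural smooth muscle-like cells was 43.8, 33.0, 30.8 and 43.9 CPM, below the cluster 10 values in each library, and in stroma-like cells 48.6, 67.2, 77.7 and 89.8 CPM. The cluster 10 level thus lay below the level of the whole stroma-like class in both AMH libraries, and the part of free RNA in it was not tested. Within that class, cluster 15, which also met the rule for theca-like cells, had 203 CPM of Hsd3b1 over the libraries. The other stroma-like clusters had 33.6 to 59.7 CPM.

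**Figure D5:**
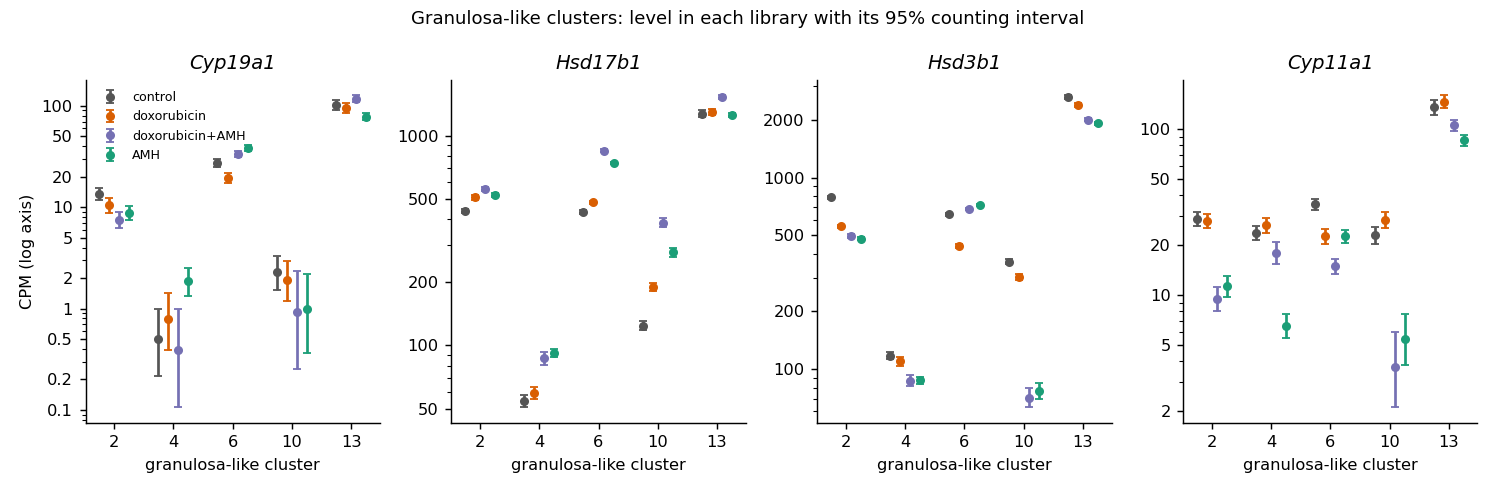
CPM of Cyp19a1, Hsd17b1, Hsd3b1 and Cyp11a1 in 5 granulosa-like clusters (x axis, cluster number) of each library, with exact Poisson 95% intervals, on log axes. Of these 5 clusters, cluster 13 has the highest level of all 4 genes, and Hsd3b1 in cluster 10 is lower in both AMH libraries.

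After thinning, Hsd17b1 was seen in 36.9% (34.9 to 39.1), 39.0% (36.9 to 41.2), 55.0% (52.9 to 57.0) and 47.3% (45.5 to 49.1) of granulosa-like cells, against 2.07%, 1.91%, 6.38% and 7.65% of stroma-like cells, which lack it and had median depths of 8937, 11768, 8974 and 7992 UMIs. Without thinning the granulosa-like shares were 76.0%, 76.4%, 83.1% and 78.4%. Cyp19a1 was seen in 3.05% (2.36 to 3.88), 2.46% (1.84 to 3.23), 4.77% (3.92 to 5.74) and 3.61% (2.96 to 4.35) of granulosa-like cells, in 15.2%, 13.5%, 19.7% and 14.9% without thinning, and in 0%, 0.1795%, 0.135% and 0.111% of thinned theca-like cells. Thinning left out 66, 141, 105 and 139 granulosa-like cells. Cells with a Cyp19a1 UMI usually held Hsd17b1 as well: 85.9%, 66.7%, 86.8% and 81.1% of them did, against 36.9%, 39.0%, 55.0% and 47.3% of all granulosa-like cells. In doxorubicin, 4 of 12 such cells did in cluster 26, which also met the rules for theca-like and mural smooth muscle-like cells. In cluster 13 Hsd17b1 was seen in 85.6%, 92.3%, 95.1% and 88.6% of all cells.

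Likeness was measured as Pearson's correlation of log2(CPM + 5) over 24 points, 6 classes in 4 libraries that share library and depth, among 9478 genes, and is a description. The genes most like Cyp17a1 were Cyp11a1 (0.979), Slc45a3 (0.963) and Serpina5 (0.959). Those most like Cyp19a1 were Sel1l3 (0.981), Dpysl5 (0.978) and Reln (0.976), and those most like Star were Lhcgr (0.975), Gm47547 (0.970) and Tmem200a (0.967). Slc45a3 had 128, 112, 15.8 and 17.9 CPM in theca-like cells. Like Cyp17a1 it was lower in both AMH libraries, but doxorubicin+AMH lay below AMH, the reverse of Cyp17a1. Lhcgr, like Star, kept most of its theca-like level in the AMH libraries.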

How the data were processed

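Droplet 3′-end RNA libraries of 4 pooled mouse ovary samples, 1 per treatment, were used. The deposited files hold whole-number counts of UMIs per gene and cell, made with Cell Ranger 7.0.0 per the file headers. The build mm10, R 4.2.0 and Seurat 4.1.0 are named in the submitters' processing notes; the alignment settings, annotation release and handling of intronic reads are not given in the sources used here. The genes and lists were chosen with earlier results of these data known.

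Cells under 1000 UMIs or over 20% mitochondrial UMIs were left out. Doublets were removed by the highest Scrublet scores at 0.8% per 1000 cells, because the automatic threshold marked 267, 0, 1 and 0 cells; 366 to 648 per library were removed. The 4 libraries were clustered together (2000 variable genes, 30 components, 20 neighbours, Leiden resolution 1; scanpy 1.11.5, leidenalg 0.10.2, Python 3.11.15) without the 10 genes and the further pathway genes. A cluster was named from fixed markers when at least 3, and at least 50% of a list, were at least 2-fold over the median cluster in 10% of cells, with no more markers of another class than of its own among its 10 leading genes; the 50% and the last condition were set after the clusters were seen.

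UMIs were summed per class and library and given as CPM. With 1 library per group no test was run. Ratios are of CPM, and log2 ratios and counts past 2-fold use CPM + 5 and a minimum of 20 CPM in the mean over the libraries. Interval coverage was checked on simulated counts. All 10 genes are named; of 41 further pathway genes, those past 2-fold in both AMH or both doxorubicin contrasts. Alternatives were cell filters, doublets left in, another scaling, each cell weighted equally, other pseudocounts and thresholds, a per-cell marker gate, clustering with the 10 genes, no thinning, and 4 choices of clusters added after seeing the data. Gene positions are from GENCODE vM21 and promoters from RefSeq.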

Additional observations from a re-analysis of the deposited data

Results flagged for a closer look

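In theca-like cells Star had opposite signs in contrasts of the same agent, and the difference was not tested, since each group has 1 library. For the drug, doxorubicin / control stood at -0.43 on the log2 scale, whereas doxorubicin+AMH / AMH stood at 0.27. For the hormone, AMH / control stood at -0.43, whereas doxorubicin+AMH / doxorubicin stood at 0.26. Srd5a1 stood at -0.57 in doxorubicin / control, whereas it stood at 0.45 in doxorubicin+AMH / AMH, again untested. The counting intervals of these ratios exclude 1.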

How the results depend on the processing

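The 10 theca-like differences past 2-fold kept their sign under 9 other settings planned and 2 added after seeing the data. Over the 9, Cyp17a1 in AMH / control ranged from -4.42 to -3.59 on the log2 scale, Cyp11a1 from -3.32 to -2.60 and Fdx1 from -1.48 to -1.05; Cyp17a1 in doxorubicin+AMH / AMH, the nearest of the 10 to 2-fold, ranged from 1.03 to 1.41. With each cell weighted equally, 1 member (Hsd17b1) was higher in theca-like cells in doxorubicin / control and 1 in AMH / control, and 1 (Cyp11a1) was lower in granulosa-like cells in AMH / control and 1 in doxorubicin+AMH / doxorubicin, against 0 in each case. With no filter on low CPM, 1 (Hsd17b1) was higher in theca-like cells in AMH / control and 1 (Cyp17a1) lower in granulosa-like cells in doxorubicin+AMH / doxorubicin. At 1.5-fold, granulosa-like cells had 1 member higher and 1 lower in AMH / control, and 1 higher and 1 lower in doxorubicin+AMH / doxorubicin. The share of all genes was not computed with equal weighting, without the filter or at 1.5-fold, so these counts have no background and are not read further. In the shared theca-like cluster alone, 1 member was lower in AMH / control and 0 in doxorubicin+AMH / doxorubicin, against 5 and 4, and the share of all genes was 0.196% and 0.114%, against 3.00% and 2.92%. Of the 30 other theca-like ratios, 8 turned sign under a planned setting and 10 under a setting added after seeing the data. Of the 40 granulosa-like ratios, 5 and 2 did. Over the 9 planned settings, theca-like Star in AMH / control ranged from -0.66 to -0.39 on the log2 scale. The lowest of these values lies past 1.5-fold. Median-of-ratios scaling moved the median of all genes by at most 0.098 on the log2 scale in any contrast. No paired analysis was possible because each group has 1 library and the labels carry no replicate numbers. Depth limits Cyp19a1 in theca-like cells and Cyp17a1 in granulosa-like cells, which rest on few UMIs.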

Other observations

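Star, the cholesterol carrier of theca cells, was also high in surface epithelial-like cells, a small class of 106, 93, 38 and 66 cells. Of its 2 clusters, cluster 27 had 414 CPM over the libraries and cluster 31 55.5 CPM. Cluster 27 held 64, 55, 35 and 32 cells and cluster 31 42, 38, 3 and 34 cells. Over both clusters together the level was 359 (339 to 380.1), 245 (228 to 264), 379.9 (331 to 434) and 218 (196 to 242) CPM. Cyp11a1, which uses the delivered cholesterol, was at 24.03, 23.3, 10.4 and 5.56 CPM in these cells. The class was too small for the comparison between libraries.

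Hsd3b6, a relative of Hsd3b1 on the fixed list, had 1.35 (0.943 to 1.88), 1.23 (0.791 to 1.84), 21.3 (19.1 to 23.7) and 20.5 (18.4 to 22.7) CPM in theca-like cells, higher in the libraries with AMH, where Hsd3b1 was lower. It had 0.598, 0.129, 0.585 and 0.686 CPM in granulosa-like cells and 0.285, 0.0323, 0.556 and 0.0842 CPM in stroma-like cells. It lay below the mean of 20 CPM and was picked after its values were seen.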
